A study of Mus musculus with 11 samples.

Results

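The 10 genes described here encode or produce the cell surface markers by which fibroblasts on their way to induced pluripotency are usually followed: Thy1, Cd44, Icam1, Cd200, Pdpn, Alpl, Fut4, Fut9, Cd24a and Cd109. They were chosen by name from knowledge of the field, with earlier results of these data already known. They are 10 of the 22180 genes that the arrays' annotation names. Each gene was read from the probe set with the highest mean over the 11 arrays. Of the 10, 8 had 1 probe set that named no other gene, and Alpl and Cd24a had 2.

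The cells were mouse embryonic fibroblasts (MEFs) carrying 1 copy of the doxycycline-dependent activator Rosa-rtTA, used at passage 4. They were infected with 4 doxycycline-inducible (tetO) vectors, for Sox2, Klf4, Myc and Oct4, and given doxycycline from day 0. At day 6 and day 9 the cultures were collected unsorted, or double sorted for CD73 (the product of Nt5e) or CD49d (integrin alpha 4, the product of Itga4). This gave 8 reprogramming arrays: CD49d+, CD73+, CD73- and unsorted cells at each day. The labels call the CD49d+ and CD73+ cells poised and the CD73- cells non-poised. The 3 control arrays came from uninfected Rosa-rtTA+/- MEFs at passage 4, from the partially reprogrammed line SC4 at passage 10 and from V6.5 embryonic stem cells (ESC) at passage 11. SC4 and V6.5 are single lines, and the ESC were grown in a medium with LIF while SC4 stayed in fibroblast medium with more serum. Infected cells carry 4 factors and received doxycycline, so factor expression and drug cannot be told apart in their differences from the MEFs.

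Every group has 1 array. The adjusted p-values below come from limma on the 8 reprogramming arrays with terms for population and day, so they measure how well the populations' differences repeated between the 2 days. Nothing in the labels says whether the days were separate infections. Differences from MEF, SC4 or ESC rest on single arrays and carry no test. In bulk RNA, fewer cells with a transcript and less transcript per cell cannot be told apart. Transcript levels are not surface protein levels.

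Reprogramming fibroblasts lose mesenchymal surface proteins early and gain alkaline phosphatase and then the SSEA-1 antigen, the Lewis X sugar. THY1, a small GPI-anchored glycoprotein of fibroblasts and neurons, is the classic marker of the starting cell. CD44, a receptor for hyaluronan, and ICAM1, the adhesion ligand of leukocyte integrins, serve as a pair in sorting late intermediates, CD44 being lost and ICAM1 gained on the way to pluripotency. Fut4 and Fut9 encode the fucosyltransferases that make Lewis X, and tissue-nonspecific alkaline phosphatase is the product of Alpl.

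RefSeq promoters (build GRCm38.p6) were at hand for 6 of the 10 genes: Cd44, Icam1, Cd200, Pdpn, Fut4 and, with 2 start sites, Alpl. Icam1 and Cd44 are shown because they form the sorting pair, and Pdpn because it was among the transcripts that rose in poised cells. Each line gives the 250 bases before the start site, 5′ to 3′ on the gene's strand, with matches to the motifs searched in capitals.
Icam1 (chr9:21015690-21015939, plus strand): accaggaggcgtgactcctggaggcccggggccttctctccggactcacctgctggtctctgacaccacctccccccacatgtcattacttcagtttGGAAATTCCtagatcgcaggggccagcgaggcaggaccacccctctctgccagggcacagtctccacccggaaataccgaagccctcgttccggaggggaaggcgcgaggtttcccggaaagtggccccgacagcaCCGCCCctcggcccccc
Cd44 (chr2:102901666-102901915, minus strand): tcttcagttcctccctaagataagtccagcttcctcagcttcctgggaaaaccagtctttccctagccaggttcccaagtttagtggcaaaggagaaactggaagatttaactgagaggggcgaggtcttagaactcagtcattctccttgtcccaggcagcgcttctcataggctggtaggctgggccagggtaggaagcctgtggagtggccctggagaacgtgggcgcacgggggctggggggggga
Pdpn (chr4:143299565-143299814, minus strand): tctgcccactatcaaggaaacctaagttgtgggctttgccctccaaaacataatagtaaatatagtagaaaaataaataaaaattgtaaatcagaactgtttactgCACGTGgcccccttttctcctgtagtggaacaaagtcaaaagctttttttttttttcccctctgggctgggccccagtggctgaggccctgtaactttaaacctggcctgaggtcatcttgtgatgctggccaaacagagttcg

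Counting the base just before the start as -1, the Icam1 window held GGAAATTCC, a letter string bound by NF-kappaB, from -153, and a GC box (GGGCGG on the opposite strand) from -17. The Pdpn window held the E-box CACGTG from -144. The Cd44 window matched none of the motifs. Of the other windows, Cd200 had a GC box from -34, the first Alpl start had 2 overlapping GC boxes just before the start, and the second Alpl start had TATAAA on the opposite strand from -192. Fut4 had no match. All were searched on both strands, together with the octamer ATGCAAAT and the AP-1 site TGANTCA, which none of the 6 genes' windows held. Among 32851 RefSeq promoter windows, 32.7% held GGGCGG, 12.4% TATAAA, 6.75% TGANTCA, 6.02% CACGTG, 1.6% ATGCAAAT and 0.286% GGAAATTCC. The string GGAAATTCC was chosen after the sequences had been seen. A match is a description of letters only.

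The sorted cells matched their labels in the genes of the sorting markers. Nt5e lay between 2704 and 3658 in the CD49d+ and CD73+ arrays against 292 and 332 in the CD73- arrays, and Itga4 between 1082 and 1859 against 153 and 169.6. All 9 ESC markers examined were above the deposited floor of 100 in the ESC array (summed intensity 26992), and 1 to 4 were above it on the other 10 arrays (949 to 1879). Sox2, 1 of these markers and 1 of the 4 factors delivered, was at the floor on every array but ESC (3829). Why the infected cells gave no Sox2 signal was not tested. Of the 4 ESC markers tested in poised against CD73- cells, Utf1 fell and none rose. Utf1 read 225 to 551 in poised arrays against 574 and 1012 in CD73- arrays (log2 difference -1.06, limma adjusted p = 0.0144). Nanog was lower in poised cells (-0.37, limma adjusted p = 0.222) and did not pass. Outside ESC it was above the floor only in the day 9 CD73- (167) and day 9 unsorted (120) arrays. All 10 fibroblast markers were above the floor in MEF (55925). The fibroblast sum was 8157 in SC4 and 9754 in ESC. It was 11906 to 17592 in the 4 poised arrays, 11758 and 14435 in the CD73- arrays, and 15545 and 20326 in the unsorted arrays. The list's mean log2 intensity was 8.9 and 8.79 in CD73+, 9.97 and 9.33 in CD49d+, and 9.5 and 9.75 in CD73- arrays. Pdgfrb was at the floor in both CD73+ arrays. In poised against CD73- cells Col3a1 and Postn of the 10 fell and Prrx1 rose. Markers of other cell types were mixed. Of 8 macrophage and blood cell genes, Ptprc, Adgre1, Csf1r and Itgam were at the floor on all 11 arrays, Cd68 read 356 to 1062, and Laptm5 rose in the poised cells (178 to 335 against 100 and 124 in CD73- cells). The list's sum was 1372 to 1494 in poised and 1254 and 1386 in CD73- arrays. Of 7 endothelial genes Tek and Cldn5 rose, Tek reading 1055 to 1673 in poised against 459 and 633 in CD73- cells. Cldn5 stayed near the floor, at 121 to 177 against 108 and 100. Pecam1 was lower in poised cells (log2 difference -0.34, limma adjusted p = 0.303) and did not pass. Emcn was at the floor on all 11 arrays and Cdh5 at the floor on 3 of the 4 poised arrays. The endothelial sum was 1730 to 2353 against 1067 and 1322, its largest part being Tek. Of 6 neural genes Stmn2 rose, and the sum was 8213 to 9998 against 5836 and 6843. Most of that sum was Stmn2 itself (5956 to 6837 against 3387 and 4232). The neural list's mean log2 intensity overlapped, at 8.97 to 9.46 in poised and 9.04 and 9.15 in CD73- arrays. None of 6 keratinocyte genes passed. In the unsorted arrays their sum was 1677 and 1691, mostly Krt14 (943 and 989), with Krt15 and Trp63 at the floor. The part of these genes in the differences below was not tested.

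**Figure D1:**
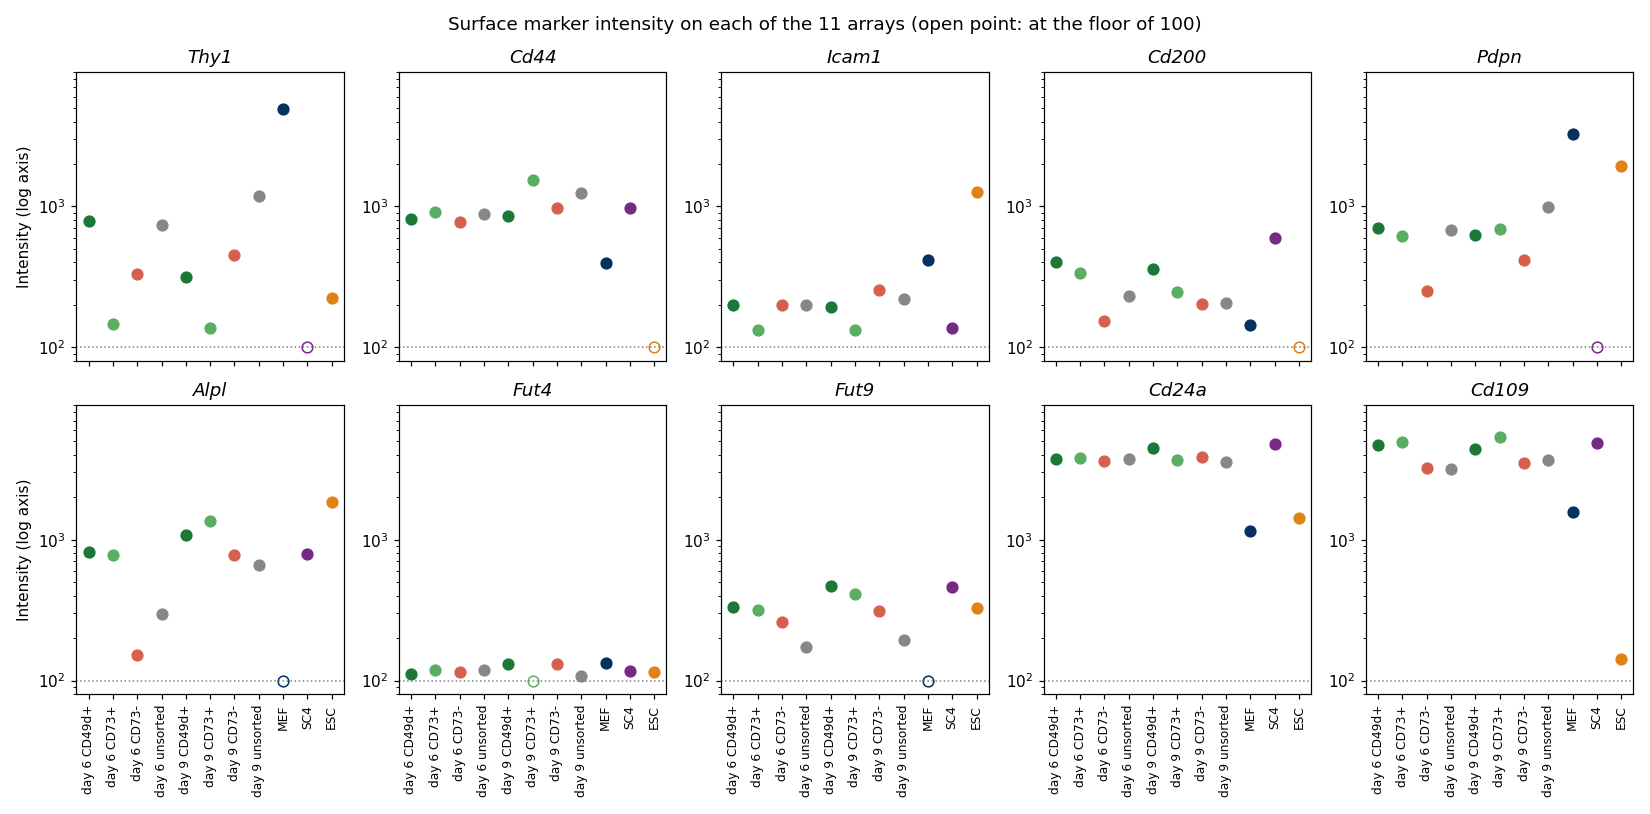
Intensity of the 10 surface marker genes on each of the 11 arrays, on a log axis; each point is 1 array, the dotted line is the floor of 100 and open points are at it. Thy1 and Pdpn are highest in MEF, Icam1 and Alpl in ESC, and Cd109 lies at 3161 or more on every reprogramming array against 142 in ESC.

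The first comparison asks how the markers differ between the poised and the non-poised cells. Cd109, Cd200, Pdpn and Fut9 rose in the poised cells and Icam1 fell. Thus 5 of the 10 genes passed the test (limma, Benjamini-Hochberg adjusted p under 0.05 over 13313 genes), 4 upward and 1 downward. Over all genes tested the test called 12.0%, with 7.16% higher and 4.85% lower. Alpl, Thy1, Cd44, Cd24a and Fut4 did not pass. In the same 5 genes the 4 poised arrays did not overlap the 2 CD73- arrays, as in 33.0% of all genes tested. The median log2 difference was 0.30 over the 10 genes and -0.01 over all genes tested. Alpl, the largest of the 10 differences, passed after centring each array on its median (limma adjusted p = 0.0222) and with values under 200 raised to 200 (adjusted p = 0.0483), and not in the fit reported here. Cd109 still passed without either of the CD49d+ arrays and Pdpn without the day 9 CD49d+ array, while leaving out any single one of the other arrays, unsorted ones included, ended every call. With both unsorted arrays out, Fut9 (adjusted p = 0.0486) and Cd109 (adjusted p = 0.0383) passed.

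Thy1, the fibroblast marker, read 785 and 315 in CD49d+ cells at day 6 and day 9, 146 and 136 in CD73+ cells, 332 and 449.8 in CD73- cells, and 738 and 1194 in unsorted cells. MEF read 4926, ESC 224 and SC4 the floor of 100. Every reprogramming array was below MEF, and the CD73+ arrays were below ESC. The distance to MEF ran from 4.13-fold lower in unsorted cells at day 9 to 36.18-fold lower in CD73+ cells at day 9. Between the poised gates the CD49d+ arrays were both higher than the CD73+ arrays, by 3.53-fold (log2 difference 1.82 ± 0.49, SE; limma adjusted p = 0.112), which did not pass. Against CD73- cells the CD49d+ difference was 1.24 at day 6 and -0.52 at day 9 on the log2 scale, and without the day 6 CD49d+ array the fitted value turned from 0.36 to -0.47. The CD73+ difference from CD73- cells was -1.46 ± 0.49 (adjusted p = 0.136). The fibroblast marker sums above were also lower in the CD73+ arrays (13050 and 11906) than in the CD49d+ arrays (17592 and 12609) of the same day. The day 6 CD73+ sum was above the day 9 CD49d+ sum. By the list's mean log2 intensity both CD73+ arrays (8.9 and 8.79) lay below both CD49d+ arrays (9.97 and 9.33) and both CD73- arrays (9.5 and 9.75). The part of the fibroblast markers in the Thy1 values was not tested.

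Pdpn encodes podoplanin, a mucin-like glycoprotein of fibroblasts, lymphatic endothelium and some epithelia. It read 701 and 624 in CD49d+ cells, 611 and 689 in CD73+ cells, 251 and 416 in CD73- cells, and 679 and 984 in unsorted cells. MEF read 3253, ESC 1924 and SC4 the floor. The 4 poised arrays lay above both CD73- arrays without overlap, and the unsorted cells lay within or above the poised range. Pdpn rose 2.03-fold in poised over CD73- cells (log2 difference 1.02 ± 0.19, SE; limma adjusted p = 0.0343), by 1.39 at day 6 and 0.66 at day 9. The gates did not separate from each other (0.03 ± 0.22, adjusted p = 1.0). Pdpn was thus above the floor in both end points of the process, 1.69-fold lower in ESC than in MEF, and at least 19.24-fold lower in SC4 than in ESC.

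Cd44 read 819.8 and 855 in CD49d+ cells, 913 and 1545 in CD73+ cells, 778 and 974 in CD73- cells, and 876 and 1253 in unsorted cells. MEF read 397, SC4 975 and ESC the floor. All 8 reprogramming arrays were above MEF, by 1.96-fold to 3.89-fold, and above ESC. The highest was the CD73+ array of day 9. The poised cells' difference from CD73- cells was 0.20 ± 0.15 (SE; limma adjusted p = 0.44), and that of CD49d+ from CD73+ cells -0.50 ± 0.17 (adjusted p = 0.161); neither passed.

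Icam1 read 199 and 194 in CD49d+ cells, 132 and 133 in CD73+ cells, 201 and 254 in CD73- cells, and 199 and 219.8 in unsorted cells. MEF read 415, SC4 138 and ESC 1258. The CD73+ arrays and SC4 were the lowest, all 8 reprogramming arrays were below MEF by 1.63-fold to 3.15-fold, and ESC was 3.03-fold above MEF. Icam1 fell by 0.48 ± 0.09 on the log2 scale in poised against CD73- cells (SE; limma adjusted p = 0.0348) and by 0.77 ± 0.11 in CD73+ against CD73- cells (adjusted p = 0.025). The CD49d+ cells' difference from CD73- cells was -0.20 ± 0.11 (adjusted p = 0.281). With values under 200 raised to 200 neither call held: the poised difference was -0.17 (adjusted p = 0.234) and the CD73+ one -0.17 (adjusted p = 0.31).

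Cd200 encodes an immunoglobulin-family glycoprotein that signals to the CD200 receptor on myeloid cells. It read 402 and 358 in CD49d+ cells, 336 and 246 in CD73+ cells, 154 and 204 in CD73- cells, and 230.3 and 205 in unsorted cells. MEF read 143, SC4 601 and ESC the floor. The 4 poised arrays were above both CD73- arrays, and SC4 was above all 8. Cd200 rose 1.86-fold in poised cells (log2 difference 0.90 ± 0.18, SE; limma adjusted p = 0.0372), by 1.26 at day 6 and 0.54 at day 9. It passed in the CD49d+ gate (1.10 ± 0.20, adjusted p = 0.0326), while in the CD73+ gate the value was 0.70 ± 0.20 (adjusted p = 0.104). The difference between the gates themselves was 0.40 ± 0.20 (adjusted p = 0.305).

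Cd109, a GPI-anchored protein that binds TGF-beta and its receptor, was highest in the CD73+ cells. It read 4683 and 4366 in CD49d+ cells, 4900.5 and 5343 in CD73+ cells, 3243 and 3525 in CD73- cells, and 3161 and 3677 in unsorted cells. MEF read 1565, SC4 4881 and ESC 142. The unsorted cells lay with the CD73- cells, and the poised cells lay at the level of SC4. Cd109 rose 1.42-fold in poised cells (log2 difference 0.51 ± 0.08, SE; limma adjusted p = 0.0233), and in each gate against CD73- cells, by 0.60 ± 0.09 in CD73+ (adjusted p = 0.0302) and 0.42 ± 0.09 in CD49d+ (adjusted p = 0.0454). SC4 stood 34.43-fold above ESC.

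Cd24a encodes a small, heavily glycosylated GPI-anchored sialoprotein of progenitor and epithelial cells. Its 8 reprogramming values lay between 3548 and 4455, with 1144 in MEF, 4783 in SC4 and 1432 in ESC. On this probe set they were 3.1-fold to 3.89-fold above MEF whatever the sort or the day. The poised cells' difference from CD73- cells was 0.06 ± 0.08 (SE; limma adjusted p = 0.718). The second probe set read 491 and 551 in CD49d+ cells against 247 and 246 in CD73+ cells, an order that the first did not show. It gave 225 and 289 in CD73- cells and 156 in MEF, so its distance from MEF varied with the sort.

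Alpl encodes tissue-nonspecific alkaline phosphatase, whose activity stains early colonies. It read 823 and 1075 in CD49d+ cells, 778 and 1354 in CD73+ cells, 152 and 778 in CD73- cells, and 296 and 657 in unsorted cells. MEF read the floor, SC4 786 and ESC 1854. At day 6 the poised cells were far above the CD73- cells; at day 9 the poised values were still above it, by less. The CD73- value of day 9 equalled the CD73+ value of day 6. The poised difference was 1.52 ± 0.40 (SE; limma adjusted p = 0.0729), made of 2.40 at day 6 and 0.63 at day 9, and did not pass. From day 6 to day 9 the CD73- cells differed by 5.12-fold, the unsorted cells by a log2 difference of 1.15 and the CD49d+ and CD73+ cells by 0.39 and 0.80; these are single pairs of arrays. ESC was at least 18.54-fold above MEF. The second probe set of Alpl kept day 6 CD73- cells lowest of the reprogramming arrays (115) and gave 146 in MEF and 548 in ESC. In CD49d+ cells it read 422 at day 6 and 322 at day 9, the reverse of the first probe set's order.

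Lewis X was represented by both of its fucosyltransferases. Fut9 read 335 and 468 in CD49d+ cells, 316 and 409.8 in CD73+ cells, 259 and 313 in CD73- cells, and 174 and 195 in unsorted cells. MEF read the floor, SC4 459 and ESC 327. Every sorted array was above both unsorted arrays, and the CD49d+ array of day 9 was level with SC4. Fut9 rose 1.32-fold in poised over CD73- cells (log2 difference 0.41 ± 0.08, SE; limma adjusted p = 0.0377) and 1.39-fold in CD49d+ cells (adjusted p = 0.0356). With values under 200 raised to 200 neither Fut9 call held (limma adjusted p = 0.0623 for poised and 0.057 for CD49d+ cells). Fut4 lay between the floor and 133 on all 11 arrays, so that its differences, the poised one being -0.09 ± 0.12 (adjusted p = 0.693), are differences near the floor.

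**Figure D2:**
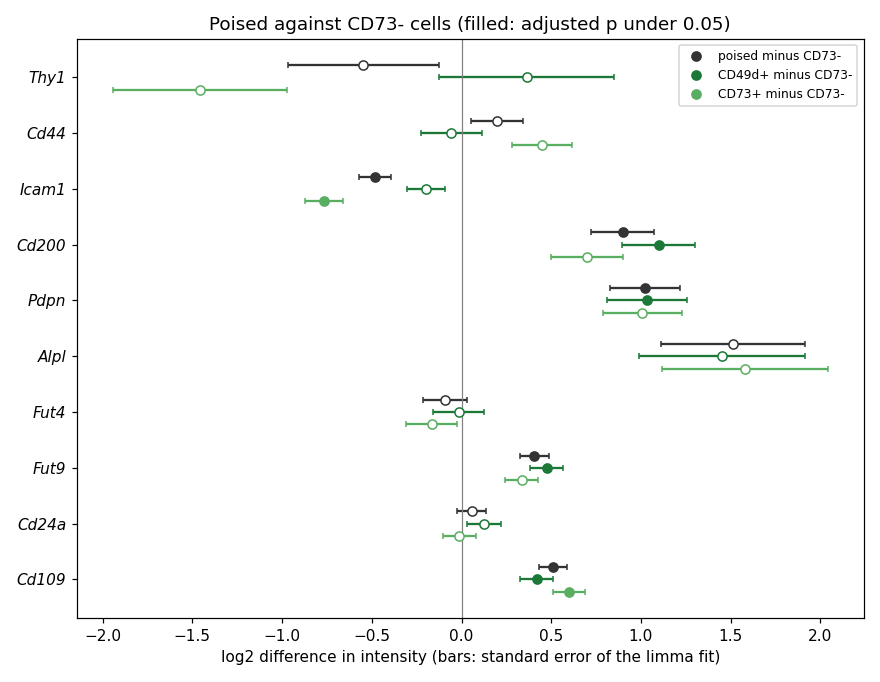
Log2 difference in intensity of the 10 genes between poised, CD49d+ or CD73+ cells and CD73- cells, with bars for the standard error of the limma fit on 8 arrays; filled points passed the adjusted p of 0.05. Cd109, Cd200, Pdpn and Fut9 are filled to the right and Icam1 to the left for poised minus CD73- cells.

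By gate, the CD73+ cells differed from the CD73- cells in 2 of the 10 genes, Cd109 upward and Icam1 downward, where 8.0% of all genes passed (5.06% upward and 2.94% downward). The CD49d+ cells differed from the CD73- cells in 4, Cd109, Cd200, Pdpn and Fut9, all upward, where 13.3% of all genes passed and 7.69% upward. Both comparisons use the same CD73- arrays. Between the gates none of the 10 passed, where 0.03% of all genes did (4 of 13313); at an unadjusted limma p under 0.05 the counts were 3 of 10 and 3212 genes. This count over all genes depended on scaling, with 630 genes after centring each array on its median and 813 after quantile normalisation. The CD49d+ and CD73+ arrays did not overlap for 5 genes, Thy1, Cd44, Icam1, Cd200 and Cd109, as for 52.5% of all genes tested. Icam1 passed between the gates with either scaling (log2 differences of 0.58, limma adjusted p = 0.0365, and 0.65, adjusted p = 0.0375), but all 4 values lie under 200, so that with a floor of 200 no difference is left. Leaving out 1 array moved the CD73+ count between 0 and 4 and the CD49d+ count between 0 and 2. In CD73+ cells the calls of Icam1 and Cd109 held without either CD49d+ array and were lost without any other; in CD49d+ cells Pdpn and Cd109 held without the day 9 CD49d+ array, and no other call held.

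Between day 6 and day 9 no gene passed, among the 10 or among all 13313 (0.0%), although 1545 genes had an unadjusted limma p under 0.05, with Alpl, Cd44 and Fut9 among them. After centring 137 genes passed, and after quantile normalisation 5, none of them among the 10. Alpl differed by 1.17 ± 0.33 on the log2 scale (SE; adjusted p = 0.313), Cd44 by 0.42 ± 0.12 (adjusted p = 0.319) and Fut9 by 0.32 ± 0.07 (adjusted p = 0.224). On the probe sets used, each of these 3 was higher at day 9 in all 4 populations. On the second Alpl probe set the CD49d+ cells were lower at day 9 (322) than at day 6 (422), and the other populations higher. Thy1 went separate ways in the single pairs, with log2 differences of -1.32 in CD49d+, -0.10 in CD73+, 0.44 in CD73- and 0.69 in unsorted cells.

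Set against the MEF array, the reprogramming arrays fell into groups of markers. Thy1 and Pdpn were at least 2-fold below MEF on all 8 arrays, as were 5.78% of genes above the floor somewhere. Cd109 and, by its first probe set, Cd24a were at least 2-fold above MEF on all 8, as were 4.89%. On the second Cd24a probe set the CD73+ and CD73- arrays, at 225 to 289, were less than 2-fold above MEF (156). Alpl and Fut9 were above the MEF floor on all 8, by at least 1.52-fold to at least 13.54-fold for Alpl and at least 1.74-fold to at least 4.68-fold for Fut9. On the second Alpl probe set MEF was above the floor (146) and the day 6 CD73- array (115) below MEF. Counting any size, 6 of the 10, Alpl by its first probe set, were above MEF on all 8 arrays (30.1% of genes) and the other 4, Thy1, Pdpn, Icam1 and, close to the floor, Fut4, were below MEF on all 8 (30.2%).

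The ESC array gives the other end. At 2-fold, 6 of the 10 genes differed between ESC and MEF, 3 in each direction, where 23.9% of genes did (12.0% higher and 11.9% lower in ESC). Alpl, Fut9 and Icam1 were higher in ESC, and Thy1, Cd44 and Cd109 lower, by 21.96-fold, at least 3.97-fold and 11.04-fold. On the log2 path from MEF to ESC the 8 arrays had covered 45.9% to 116.2% for Thy1, 14.3% to 89.2% for Alpl and 46.9% to 130.4% for Fut9. Cd44, Icam1 and Cd109 lay on the far side of MEF, at -98.6% to -48.8%, -103.3% to -44.3% and -51.1% to -29.3%. Where the floor is one of the ends (Alpl, Fut9 and Cd44), these percentages depend on it.

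SC4 differed from MEF by 2-fold in 9 of the 10 genes, all but Fut4 (22.4% of genes), and from ESC in 8 (12.8% of genes). Its Cd24a was above that of all 8 reprogramming arrays, its Cd109 lay within the range of the poised arrays, and its Icam1 was close to that of the CD73+ arrays alone. It departed from all 8 in Pdpn, which all 8 reprogramming arrays held at least 2-fold above SC4, as they did 1.42% of genes. SC4 also lay below all 8 in Thy1, at the floor, and above all 8 in Cd200, by less than 2-fold against the nearest array. These are differences between single arrays.

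**Figure D3:**
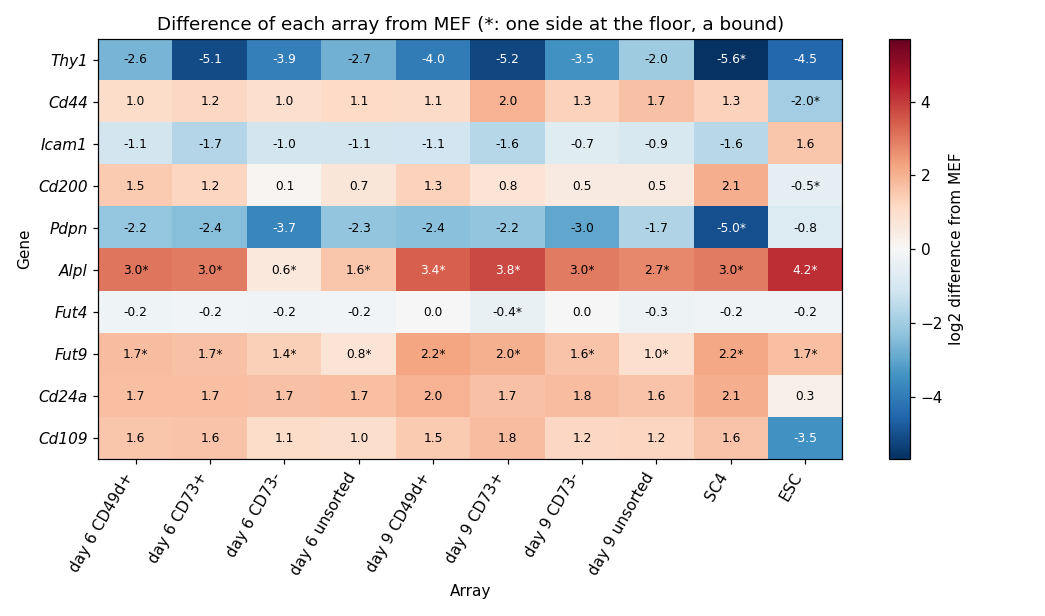
Heat map of the log2 difference of each of the 10 genes (rows) from the MEF array, for the 8 reprogramming arrays, SC4 and ESC (columns); red is higher than MEF, blue lower, and a star marks a bound with a side at the floor. Cd44, Cd109 and Icam1 lie on opposite sides of 0 in the reprogramming arrays and in ESC. Cd200 does so as well, with a bound of -0.5 in ESC.

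Over the 11 arrays the 10 genes followed each other in a few blocks. The correlations that follow are descriptions across arrays that share the same 3 controls. They were not computed for the 8 reprogramming arrays alone. Cd44 and Cd109 ran together (Pearson r = 0.962), and Icam1 ran against both (-0.937 and -0.966). For these genes ESC and MEF lay outside the range of the 8 reprogramming arrays. Cd44 read 100 and 397 there against 778 to 1545, Cd109 142 and 1565 against 3161 to 5343, and Icam1 1258 and 415 against 132 to 254. Cd24a ran with Cd44 (0.791) and against Icam1 (-0.818) and Pdpn (-0.805). Alpl and Fut9 ran together (0.782), and Thy1 ran against Fut9 (-0.865) and Alpl (-0.647) and with Pdpn (0.637).

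**Figure D4:**
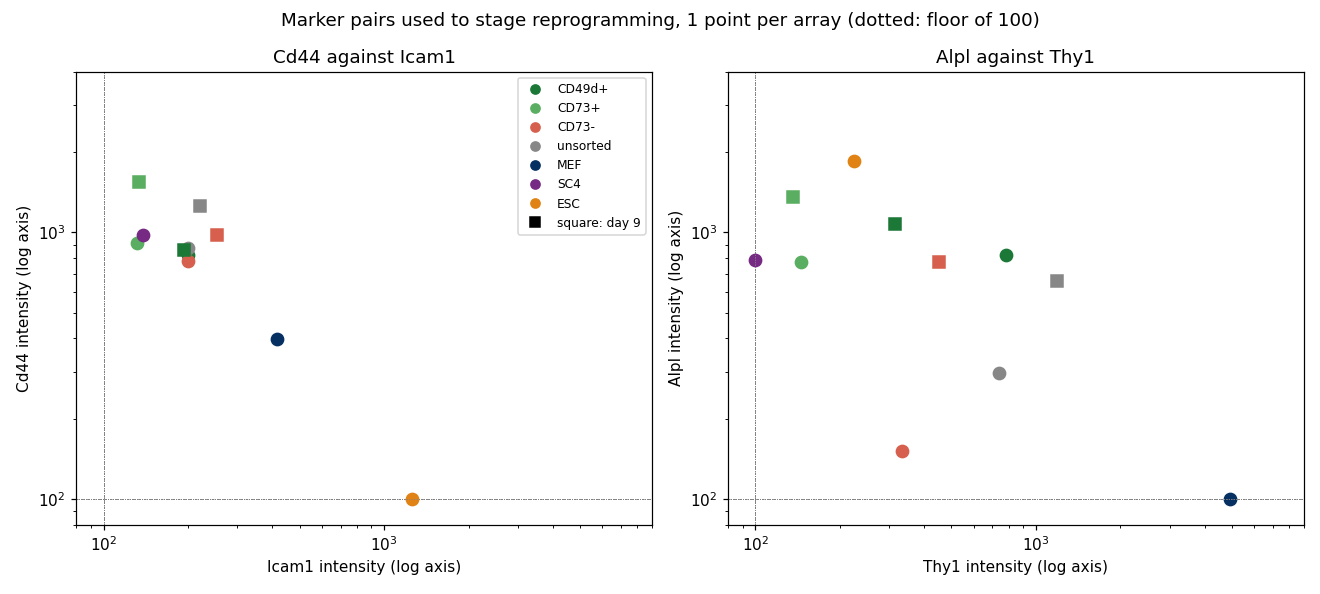
Intensity of Cd44 against Icam1 (left) and of Alpl against Thy1 (right), both axes log, each point 1 of the 11 arrays (squares for day 9); dotted lines mark the floor of 100. The ESC array lies at the low Cd44, high Icam1 end (r = -0.937 over all arrays), and the MEF array at the low Alpl, high Thy1 end (r = -0.647).

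Among 12141 genes above the floor on at least 6 arrays, those nearest in pattern to Thy1 were Cav1 (r = 0.985), the main caveolin of fibroblasts, Oaf (0.982) and Zyx (0.979), which encodes the focal adhesion protein zyxin. Nearest to Pdpn was the stress-response gene Nupr1 (0.982), then Cryzl2 (0.963) and Pde2a (0.961). Nearest to Cd44 were Klhl42 (0.97), the cyclin gene Ccnd1 (0.963) and Cd109 (0.962), and nearest to Icam1 were Gfpt2 (0.984), Mpv17l (0.981) and Plk3 (0.971). Cd24a was nearest to Klf4 (0.987), 1 of the 4 factors delivered, then Adap1 (0.986) and Nhlrc2 (0.984). Cd109 was nearest to Dglucy (0.985), Zkscan1 (0.983) and Aida (0.981), and Cd200 to Pnpla3 (0.951), Bcr (0.949) and Pllp (0.947). Alpl was nearest to Fgf4 (0.925), a growth factor gene of pluripotent cells, Kdm3a (0.917) and Etv5 (0.916), and Fut9 to N4bp2 (0.971), Lpcat1 (0.961) and Sgo2a (0.955). For Fut4, near the floor throughout, the nearest reached 0.815 (Tctn3), 0.807 (Anks3) and 0.739 (Dgkq).

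Other genes of the same families were read in the poised comparison from lists chosen by function. The counts stand against 7.16% of all genes higher and 4.85% lower in that comparison. Of 13 tested genes for stem and epithelial surface markers, 4 rose and 1 fell, with a median log2 difference of 0.37. Ceacam1, an epithelial adhesion molecule, read 1713 and 1685 in CD49d+ cells, 2128 and 3549.6 in CD73+ cells, and 180.1 and 638 in CD73- cells, a 6.37-fold rise (log2 difference 2.67 ± 0.38, SE; limma adjusted p = 0.0197). Itgb4, the beta 4 integrin of hemidesmosomes, rose by 1.33 (adjusted p = 0.0136). The placental cadherin gene Cdh3 fell by 1.31 (adjusted p = 0.031). It read 128 and 135 in CD73+ cells, 389.8 and 217 in CD49d+ cells, 488 and 481 in CD73- cells and 2948 in MEF.

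Of 17 tested genes for other fibroblast surface markers 3 rose and none fell, with a median of 0.04. Cd9, a tetraspanin, rose by 0.83 (limma adjusted p = 0.0137) and the aminopeptidase gene Anpep by 0.63 (adjusted p = 0.0244). Among 15 tested genes of Lewis X and lactosamine synthesis 2 rose and 1 fell (median -0.001): the sialyltransferase gene St3gal6 rose by 1.48 (adjusted p = 0.0175), B3gnt2, which extends lactosamine chains, by 0.72 (adjusted p = 0.0107), and the galactosyltransferase gene B4galt5 fell by 0.29 (adjusted p = 0.0418). The fucosyltransferase genes Fut1, Fut2 and Fut7 were at the floor on all 11 arrays.

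Several of the 10 proteins are held by a GPI anchor. Of 20 tested genes for making and attaching it, 1 rose, the transamidase subunit gene Pigs (log2 difference 0.44, limma adjusted p = 0.0253), and none fell. Of 12 tested genes on a list of NF-kappaB responsive genes, 1 rose, Birc3, an inhibitor of apoptosis (0.41, adjusted p = 0.0339), and none fell, a share close to that of all genes. Of 11 tested genes for hyaluronan, the ezrin family and podoplanin partners, 1 rose, again Cd9, and none fell. The intestinal and placental type phosphatase genes Alpi, Alppl2 and Akp3 were at the floor on all 11 arrays, and of the 2 tested genes on their list, Slc20a2 and Slc20a1 for phosphate transporters, the differences were -0.34 (adjusted p = 0.0614) and -0.30 (adjusted p = 0.16).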

How the data were processed

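RNA of 11 mouse cell populations was hybridised, 1 array each, to Affymetrix whole-transcript gene arrays. The deposited intensity values are linear, with no value under 100 and 52.14% to 54.31% of each array's 41345 probe sets at that floor. Per the submitters' processing notes the software was Partek (no version given). Background correction, scaling and genome build: not given in the sources used here.

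Log2 of the deposited intensity was analysed. Of the probe sets, 23521 had 1 gene symbol, 1814 several and 16010 none in GEO's platform annotation; 22180 genes were named, and of several probe sets the 1 of highest mean was kept. Genes with no array above the floor were left out (14301 stayed), and 988 at the floor on all 8 reprogramming arrays could not be fitted, leaving 13313. limma 3.58.1 in R 4.3.3 (lmFit, eBayes) was fitted with population and day, which leaves 3 residual degrees of freedom, and p-values were adjusted by the Benjamini-Hochberg method over all genes tested. The fit was tested on simulated data with independent noise, no floor and the same shift in every poised array. Such data cannot show how the fit treats values at the floor or gates that differ. A value at the floor is a bound, and a fold against it is "at least". 11 arrays, 1 per group, limit the precision.

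The 10 genes and the lists were chosen with earlier results of these data known. Genes named beside them were the 2 largest passing differences per direction and list in the poised comparison (if none passed, the 2 largest), and for each of the 10 the 3 genes of highest Pearson r. Alternatives were centring, quantile normalisation, no filter, a floor of 200, the mean of probe sets, sorted arrays only, no day term and leaving out each array.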

Additional observations from a re-analysis of the deposited data

How the results depend on the processing

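With 5, 2 and 4 of the 10 markers past the threshold for poised, CD73+ and CD49d+ cells against CD73- cells, counting all 22180 named genes in the adjustment left 1, 1 and 0. The 6 sorted arrays alone left 2 for poised and 1 for CD49d+ cells, and dropping the day term left 3 and 1. Centring gave 5 for CD73+ cells, and centring and quantile normalisation each gave 1 between the gates, where none had passed. Leaving out 1 array gave 0 to 2, 0 to 4 and 0 to 2 for the 3 comparisons, and over all genes 1 to 1775, 0 to 1009 and 1 to 1204 calls. Over all genes, the calls went from 1599, 1065 and 1777 to 994, 497 and 1007 with all named genes in the adjustment. For CD73+ cells they were 1704 after centring, 616 with the sorted arrays and 612 without the day term. Between the gates they went from 4 to 630 after centring, 813 after quantile normalisation, 411 with the floor at 200 and 160 without the day term. The share higher among CD73+ calls was 63.2%, 52.2% after centring and 50.9% after quantile normalisation.

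Of 735 refitted marker differences 707 kept their direction and 28 turned, all in values that did not pass. Under quantile normalisation Cd24a turned to 0.0121 in CD73+ against CD73- cells, and Fut4 to 0.0104 in CD49d+ against CD73- cells and to -0.000371 for day 9 minus day 6. With 1 array left out, log2 differences from CD73- cells ran from -0.224 to 0.0406 (Fut4) and -0.00576 to 0.118 (Cd24a) in poised cells, from -0.34 to 0.00695 (Fut4) and -0.0726 to 0.0494 (Cd24a) in CD73+ cells, and from -0.468 to 1.19 (Thy1), -0.292 to 0.18 (Cd44) and -0.159 to 0.127 (Fut4) in CD49d+ cells. Between the gates they ran from -0.297 to 0.352 (Pdpn), -0.651 to 0.4 (Alpl) and -0.0233 to 0.324 (Fut4), and between the days from -0.326 to 0.344 (Thy1), -0.26 to 0.0274 (Cd200), -0.0658 to 0.0926 (Fut4) and -0.00401 to 0.1 (Cd24a). The larger adjustment raises p-values by its construction; otherwise the cause was not tested. The day term already matches populations within a day, and the labels number no replicates. Signal near the floor limits Fut4 and Icam1.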
